A study of Mus musculus with 8 samples.

Results

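Fatty acid synthesis and elongation were followed through 10 genes in the left ventricle of C57BL/6J mice 3 days after cardiac ischemia-reperfusion injury. The genes were Acly, Acaca, Acacb, Fasn, Scd1, Scd2, Elovl1, Elovl5, Elovl6 and Elovl7, and all 10 were found by symbol among 38293 gene identifiers. They were chosen by function with their measured values in both groups already known, Fasn among them as a literature target of miR-195 and Elovl7 for the size of its group difference. Values are given as CPM, a gene's share of all gene counts of its library after scaling by TMM factors. In every mouse a coronary artery, the LAD, was ligated and reperfused, and a Upy-PEG hydrogel, a polymer gel that serves as a drug depot, was given into the heart muscle in 2 injections of 10 µl. In 4 libraries, the hydrogel group, the gel held no drug. In the other 4, the antimiR-195 group, it held antimiR-195, an oligonucleotide meant to block the microRNA miR-195. The injury, the strain and the gel were thus common to both groups, and no uninjured or uninjected heart was analysed here. No label says whether the 8 libraries came from 8 separate mice, so a p-value here weighs a difference only against the spread among libraries, which may be technical.

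Cells build fatty acids from acetyl-CoA in the cytosol. ATP citrate lyase (Acly) makes the acetyl-CoA, acetyl-CoA carboxylase (Acaca) turns it into malonyl-CoA, and fatty acid synthase (Fasn) joins these units into palmitate. Elongases of the Elovl family lengthen fatty acids in the endoplasmic reticulum, and stearoyl-CoA desaturases (Scd1, Scd2) put in the first double bond. The second carboxylase, Acacb, sits at the outer mitochondrial membrane, where its malonyl-CoA restrains the entry of fatty acids into mitochondria. The heart muscle burns fatty acids far more than it makes them, and Acacb is the main carboxylase of heart and skeletal muscle.

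The inhibitor is directed at miR-195, whose mature sequence in RefSeq (GRCm38.p6, chr11:70235062-70235082, plus strand) is shown with its seed, bases 2 to 8, in capitals.
miR-195a-5p: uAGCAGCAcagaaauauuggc
A match of 7 bases or more, to bases 2 to 8 or to bases 2 to 7 with an A behind, was present in the longest annotated 3′ UTR of 3 of the 10 genes, beside 28.5% of 12874 tested genes with an annotated 3′ UTR. Fasn held 2 matches in a UTR of 2008 bases, Scd1 held 4 in 3464 bases and Elovl6 held 1 in 5005 bases. None of the 7 matches was an 8-base match, which joins both kinds, a class found in 4.59% of genes. The matches are given because they mark the transcripts on which the microRNA could pair by its seed. They are not particular to miR-195, since miR-15a-5p, miR-15b-5p, miR-16-5p, miR-497a-5p and others have the same bases 2 to 8. Each line gives 29 bases of the transcript, 5′ to 3′, with the match in capitals, in the order of its place in the UTR.
Fasn match 1: ctcccctggtgGCTGCTAcaaacagacca
Fasn match 2: cctggtaaaaaTGCTGCTcttgatgctct
Scd1 match 1: gtctgtaagtaGCTGCTAagaggtgcatt
Scd1 match 2: cacccaggactTGCTGCTgtccaggcctg
Scd1 match 3: tagtggtacagTGCTGCTgaaaggaagaa
Scd1 match 4: ttggcactgggGCTGCTAatctctgggtg
Elovl6 match: aacaattagagGCTGCTAcaccacgtaga
In GRCm38 the matches of Fasn lie on the minus strand at chr11:120807702-120807708 and chr11:120807119-120807125, those of Scd1 on the minus strand between chr19:44395132-44395138 and chr19:44396755-44396761, and that of Elovl6 on the plus strand at chr3:129635221-129635227. Acly, Acaca, Acacb, Scd2, Elovl1, Elovl5 and Elovl7 had no such match in any annotated 3′ UTR of at least 50 bases. A match is a run of letters and not a measured site.

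The libraries held 16872968 to 22751753 gene counts each. AntimiR-195 replicate 2 stood apart, with correlations of log2 CPM across genes of 0.944 to 0.970 with the others against 0.978 to 0.991 among all other pairs, and with the most alignments to more than 1 place, 47.8% against 42.1% to 44.5%. The 9 cardiomyocyte markers, none of them at 0, summed to 67600 to 76000 CPM in hydrogel libraries and to 72500 to 75000 CPM in antimiR-195 libraries, as fits the labelled heart tissue. In whole tissue, fewer cells of a type and less RNA per cell cannot be told apart.

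The comparison of antimiR-195 with hydrogel asked whether these transcripts differ when the gel carries the inhibitor. None of the 10 genes passed the threshold of an adjusted p of 0.05, nor did any other gene: 0% of 13972 genes tested were called by edgeR's quasi-likelihood test with Benjamini-Hochberg adjustment, with a smallest adjusted p of 0.9999. Of the 10 genes, 7 had log2 fold changes above 0 and 3 below, with a median of 0.14, beside 52.4% above 0 and a median of 0.01 over all genes tested. No gene was called by DESeq2 or limma-voom either, which had 193 and 333 genes at an unadjusted p under 0.05. At an unadjusted p under 0.05 stood 1 of the 10, Elovl7, against 178 genes or 1.27% of those tested. The same gene was the only one of the 10 whose groups did not overlap, against 150 genes or 1.07%. Because this contrast was known when the genes were chosen, nothing is read from these counts. Without antimiR-195 replicate 2 the median of the 10 genes was 0.06, with 8 positive, and without hydrogel replicate 3 it was also 0.06, with 7 positive.

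**Figure D1:**
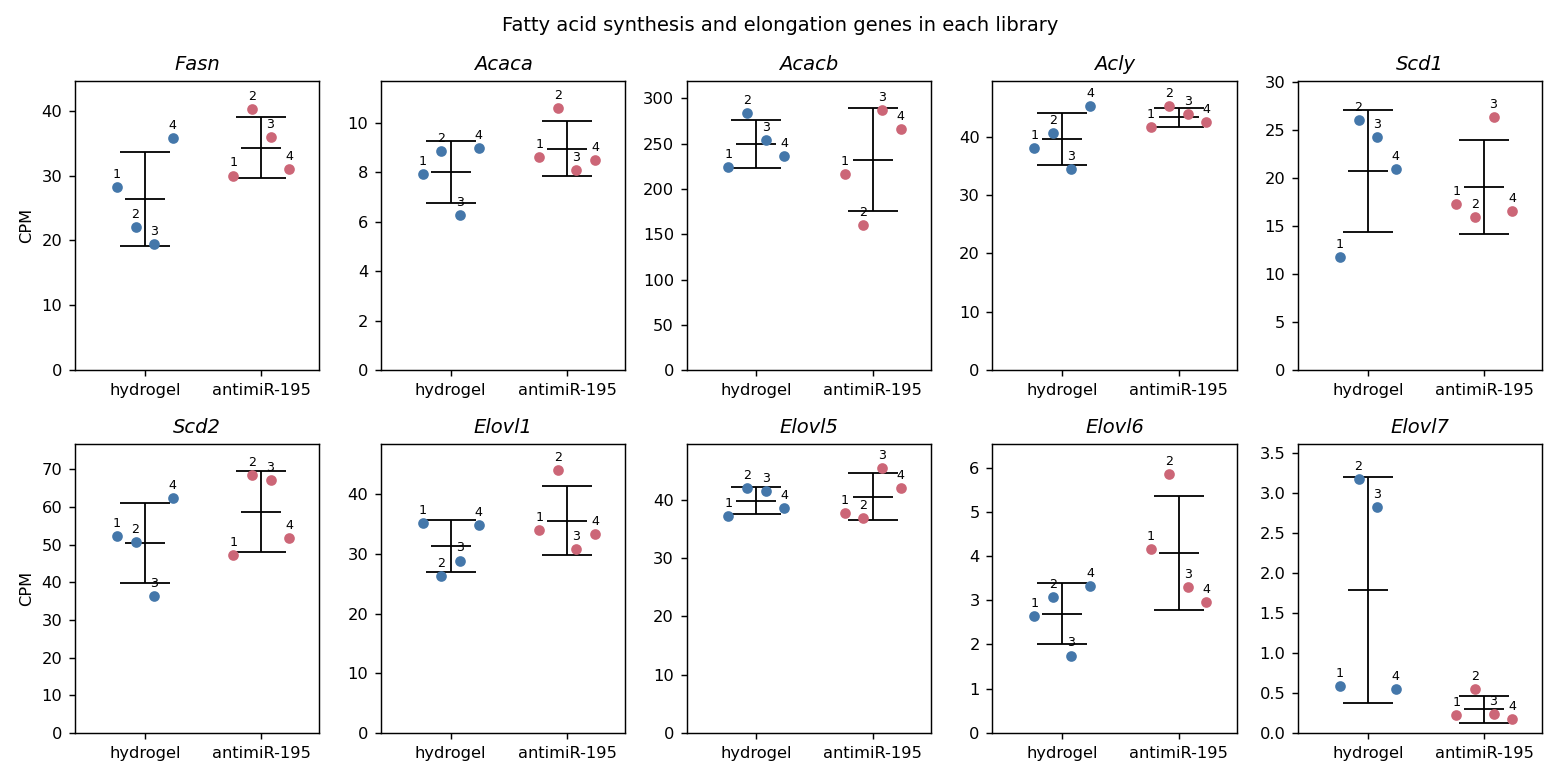
CPM (vertical axes, each from 0) of the 10 genes in the 4 hydrogel libraries (blue) and the 4 antimiR-195 libraries (red), with replicate numbers beside the points, the group mean as the middle bar and the SD over 4 libraries as the whiskers. The groups overlap for every gene but Elovl7, whose hydrogel libraries lie at 0.582, 3.18, 2.82 and 0.555 CPM and whose antimiR-195 libraries lie at or under 0.547 CPM.

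Acly, which supplies cytosolic acetyl-CoA, lies at chr11:100476353-100528000. It was at 38.0, 40.6, 34.5 and 45.2 CPM in hydrogel replicates 1 to 4 and at 41.6, 45.3, 43.8 and 42.5 CPM in antimiR-195 replicates 1 to 4. The groups overlapped, since hydrogel replicate 4 was nearly as high as the highest antimiR-195 library. The hydrogel libraries were more spread, at 39.6 ± 4.50 CPM against 43.3 ± 1.60 CPM (SD, n = 4 each). The difference on the log2 scale was 0.13 ± 0.11 (SE), with a 95% interval from -0.11 to 0.37. It was 0.07 without hydrogel replicate 3 and 0.20 without hydrogel replicate 4.

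The carboxylases lay far apart in level, and their fold changes had opposite signs without passing the test. Acaca, at chr11:84129672-84401651, was at 7.93, 8.85, 6.28 and 8.99 CPM in the hydrogel libraries and at 8.63, 10.6, 8.08 and 8.49 CPM in the antimiR-195 libraries. Its highest library was antimiR-195 replicate 2 and its lowest hydrogel replicate 3, while the other 6 were mixed. Its log2 fold change was 0.16 ± 0.16, with an interval from -0.19 to 0.51, and was 0.06 with either of those libraries left out alone. Of the 50-base words of its longest transcript, 52.6% also occur in transcripts of a gene that is not in the count table, and 0% in those of counted genes. Acacb, at chr5:114146535-114250761, was at 224, 284, 254 and 236 CPM with hydrogel alone and at 217, 160, 287 and 266 CPM with antimiR-195. AntimiR-195 replicate 2 was thus the lowest library for Acacb and the highest for Acaca. The log2 fold change of Acacb was -0.10 ± 0.18, or 0.03 without that library. In deposited RPKM, a level per gene length, Acacb was 15.9 times Acaca in antimiR-195 replicate 2 and 26.5 to 42.7 times in the other 7 libraries. The ratio averaged 33.5 ± 6.64 over hydrogel and 28.2 ± 9.31 over antimiR-195 libraries (SD, n = 4 each), so the groups differed by less than their spread.

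Fasn, the multifunctional enzyme that makes palmitate, lies at chr11:120805846-120824547. It was at 28.2, 22.1, 19.4 and 35.8 CPM in the hydrogel libraries and at 30.0, 40.2, 36.0 and 31.0 CPM in the antimiR-195 libraries. All 4 antimiR-195 libraries were above hydrogel replicates 1, 2 and 3, and hydrogel replicate 4 was above 2 of them. Its mean was 26.4 ± 7.28 CPM over the hydrogel libraries and 34.3 ± 4.70 CPM over the others (SD, n = 4 each), a log2 fold change of 0.38 ± 0.19 with an interval from -0.04 to 0.80. The quasi-likelihood test of edgeR gave it an unadjusted p of 0.0692, rank 286 of 13972 genes, and an adjusted p of 0.9999. The value was 0.26 without hydrogel replicate 3 and 0.56 without hydrogel replicate 4. Of the 3 genes with a seed match, Fasn and Elovl6 had positive values and Scd1 a negative one. Among those without a match, Acly, Acaca, Scd2, Elovl1 and Elovl5 were also positive, and Acacb and Elovl7 negative.

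The desaturase genes neighbour each other on chromosome 19, Scd2 at chr19:44293674-44306864 and Scd1 at chr19:44394455-44407879. Scd1, the main desaturase of liver and fat, was at 11.8, 26.0, 24.3 and 20.9 CPM with hydrogel alone and at 17.3, 15.9, 26.3 and 16.6 CPM with antimiR-195. Hydrogel replicate 1 was far below the other hydrogel libraries, and antimiR-195 replicate 3 far above the other antimiR-195 libraries. Scd1 had a log2 fold change of -0.13 ± 0.24, with an interval from -0.67 to 0.41. It ranged from -0.33 without hydrogel replicate 1 to -0.00 without hydrogel replicate 2. Scd2, the desaturase of brain and of many other tissues, was at 52.4, 50.8, 36.4 and 62.3 CPM with hydrogel alone and at 47.3, 68.5, 67.3 and 51.9 CPM with antimiR-195. AntimiR-195 replicates 2 and 3 were the highest and hydrogel replicate 3 the lowest, and the groups overlapped. Its log2 fold change was 0.22 ± 0.18, with an interval from -0.18 to 0.62. Leaving out hydrogel replicate 3 gave 0.09, antimiR-195 replicate 2 gave 0.13 and hydrogel replicate 4 gave 0.33. Scd2 was 1.33 to 3.94 times Scd1 in deposited RPKM, and above it in all 8 libraries. Of the 50-base words of the longest Scd1 transcript, 4.66% also occur in transcripts of other genes, with Scd3, Scd2 and Scd4 sharing the most. A small part of the reads of Scd1 and Scd2 may therefore not be told apart.

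Among the elongases, Elovl1 and Elovl5 were the most abundant. Elovl1, which lengthens saturated and monounsaturated chains toward the very long ones of sphingolipids, lies at chr4:118428093-118432953. It was at 35.2, 26.3, 28.9 and 34.9 CPM in the hydrogel libraries and at 34.0, 44.0, 30.9 and 33.3 CPM in the antimiR-195 libraries. Only antimiR-195 replicate 2 lay above the range of the hydrogel libraries. Elovl1 had a log2 fold change of 0.18 ± 0.15, with an interval from -0.14 to 0.51, or 0.06 without that library and 0.11 without hydrogel replicate 2. Cdc20, a mitotic gene with at most 379 counts in a library, overlaps Elovl1 on the opposite strand. Only 0.227% of the 50-base words of Elovl1 are shared with it.

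Elovl5, which lengthens polyunsaturated fatty acids, lies at chr9:77917364-77984519 and was the steadiest of the 10 genes, with a coefficient of variation of 7.52% over the 8 libraries. It was at 37.3, 42.1, 41.5 and 38.6 CPM with hydrogel alone and at 37.8, 36.9, 45.5 and 42.0 CPM with antimiR-195. Its log2 fold change of 0.02 ± 0.11 had an interval from -0.21 to 0.26. That interval holds changes of either sign, and the groups overlapped throughout.

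Elovl6, which takes palmitate to stearate, lies at chr3:129532355-129638495. It was scarce, at 2.64, 3.08, 1.75 and 3.33 CPM in the hydrogel libraries and at 4.15, 5.85, 3.29 and 2.96 CPM in the antimiR-195 libraries. AntimiR-195 replicates 1 and 2 were above every hydrogel library, and antimiR-195 replicate 4 was below hydrogel replicates 2 and 4. The means were 4.06 ± 1.29 and 2.70 ± 0.693 CPM (SD, n = 4 each), a log2 fold change of 0.59 ± 0.27. The quasi-likelihood test of edgeR gave it an unadjusted p of 0.0506 and an adjusted p of 0.9999. Without antimiR-195 replicate 2, its highest library, the value was 0.36. Of the 50-base words of its longest transcript, 4.4% also occur in transcripts of other genes, with Gm11295, Trim12c and Tanc2 sharing the most.

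Elovl7, an elongase of saturated very long chains, lies at chr13:108214404-108285683 and had 3 to 65 counts per library. It was at 0.582, 3.18, 2.82 and 0.555 CPM in the hydrogel libraries and at 0.224, 0.547, 0.239 and 0.171 CPM in the antimiR-195 libraries. Hydrogel replicates 2 and 3 stood alone, with 65 and 61 counts, while hydrogel replicates 1 and 4 had 11 and 10 counts and antimiR-195 replicate 2 had 10. The gap between the groups was therefore that between 0.555 and 0.547 CPM. The log2 fold change was -2.57 ± 0.68 on counts, given as a description since the gene was chosen for it. It was -2.15 without hydrogel replicate 2, -3.07 without antimiR-195 replicate 2 and -0.30 on the log2(RPKM + 1) scale, which understates differences of scarce genes. The 5 genes most like Elovl7 over the 8 libraries, of 13117 with a mean of at least 1 CPM, were Tmem37 and Rnf208 at r = 0.94, Qrsl1 at 0.93, Pdlim4 at 0.92 and Mettl18 at 0.90. Tmem37 averaged 11.9 CPM over the hydrogel libraries and 7.22 CPM over the others, and Qrsl1 26.1 and 23.3 CPM. These genes were picked for their likeness to Elovl7, itself chosen for its group difference. Their lower means with antimiR-195 largely follow from that choice and carry no test.

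**Figure D2:**
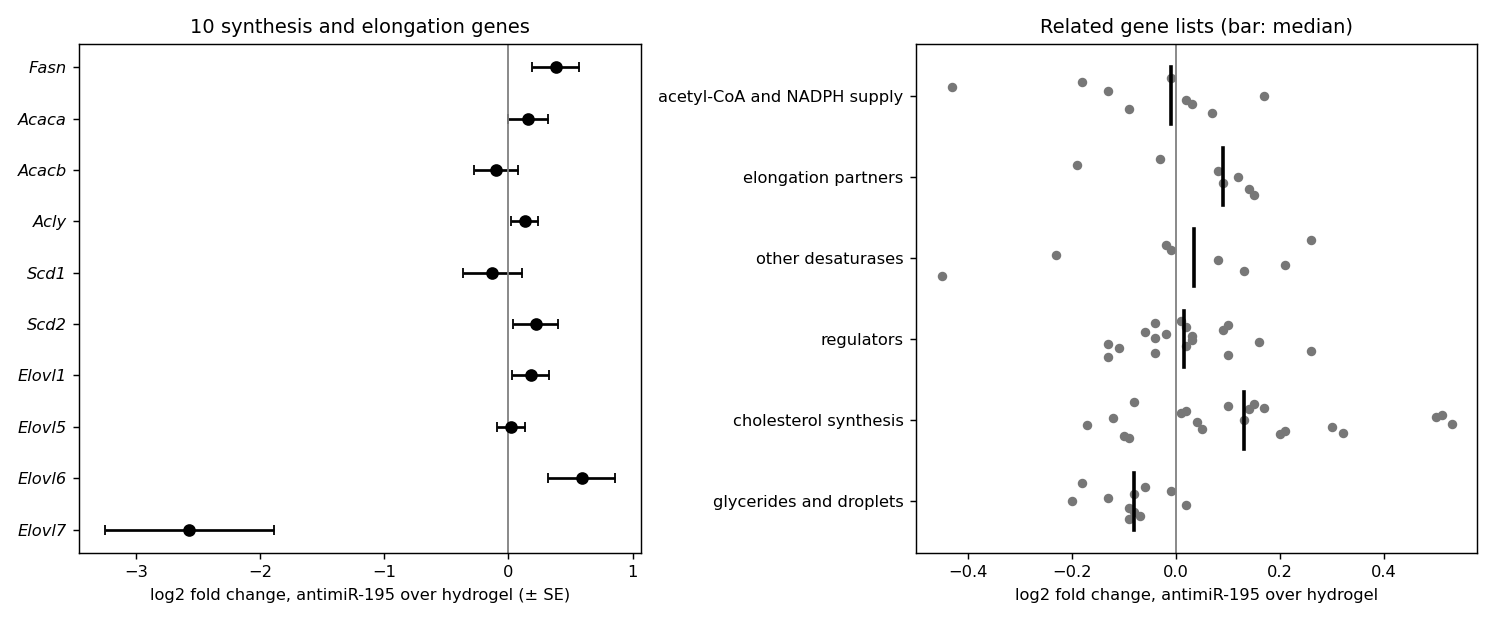
Left, log2 fold change of antimiR-195 over hydrogel with its standard error for the 10 genes. Right, on a narrower scale, the same quantity for each tested gene of 6 related lists, with the median as a bar; Elovl7 lies at -2.57, the other 9 of the 10 genes between -0.13 and 0.59, and no gene passed the threshold.

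The levels per gene length gave an order that was the same in both groups. Acacb was highest at 24.9 ± 3.92 RPKM (SD over the 8 libraries, as for the next levels) and ranked first in every library. Elovl1 at 12.3 ± 2.24, Elovl5 at 11.4 ± 0.686 and Scd2, whose group means were 9.21 ± 2.22 and 10.9 ± 2.04 RPKM (SD, n = 4 each), followed and overlapped each other. Acly at 7.86 ± 0.872 RPKM overlapped Scd2 in range but ranked 5 in every library. Scd1 at 4.10 ± 1.04 and Fasn at 3.09 ± 0.784 RPKM overlapped and exchanged ranks between libraries. Acaca at 0.837 ± 0.137 RPKM was below both in every library and overlapped Elovl6 at 0.572 ± 0.217 RPKM, which overlapped Elovl7 at 0.187 ± 0.216 RPKM. Of the 9 pairs of neighbours in this order, 6 overlapped. Other elongases were nearly absent, with Elovl2 at 0 to 6, Elovl3 at 0 to 1 and Elovl4 at 2 to 8 counts per library.

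**Figure D3:**
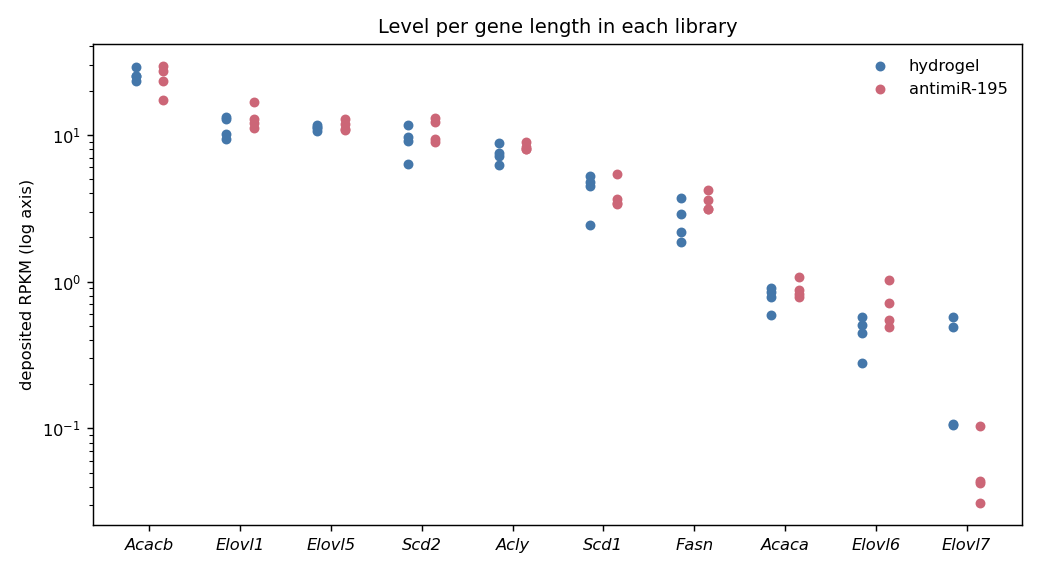
Deposited RPKM on a log axis for each of the 10 genes in the 4 hydrogel (blue) and 4 antimiR-195 (red) libraries, ordered by the mean. Acacb lies above all other genes in every library, and Acaca, Elovl6 and Elovl7 lie at or under about 1 RPKM.

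Some of the genes varied together from library to library. Of 45 pairs, 7 passed an adjusted p of 0.05 (Pearson r of log2 CPM over 8 libraries, two-sided exact permutation test, Benjamini-Hochberg over the 45 pairs), and 2 passed with Spearman's rho. Fasn, Acly and Scd2 varied together. Fasn and Acly had r = 0.88 (exact permutation p = 0.00389, adjusted 0.0466) and rho = 0.95 (exact p = 0.00114, adjusted 0.0257), and r = 0.90 without the 2 libraries farthest from the median of Fasn. Fasn and Scd2 had r = 0.89 (exact p = 0.00169, adjusted 0.0466), rho = 0.88 (exact p = 0.00724, adjusted 0.0980) and r = 0.91 without the 2 farthest. Acly and Scd2 had r = 0.89 (exact p = 0.00377, adjusted 0.0466), rho = 0.81 (exact p = 0.0218, adjusted 0.0980) and r = 0.87 without the 2 farthest. In all 3 genes hydrogel replicate 3 was lowest and antimiR-195 replicate 2 highest. The latter was not among the 2 farthest libraries left out for these pairs. Without hydrogel replicate 3 alone, r fell to 0.77 for Fasn and Acly, 0.79 for Fasn and Scd2 and 0.72 for Acly and Scd2. With each group centred on its own mean, r was 0.83, 0.89 and 0.87 for these pairs.

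Acaca followed Elovl6 and Acly, although r fell when its 2 most extreme libraries were both left out. Acaca and Elovl6 had r = 0.93 (exact permutation p = 0.00734, adjusted 0.0472) and rho = 0.83 (exact p = 0.0154, adjusted 0.0980), but r = 0.44 without the 2 libraries farthest from the median of the former. The pair of Acly and Acaca had r = 0.86 (exact p = 0.006, adjusted 0.0472) and rho = 0.76 (exact p = 0.0368, adjusted 0.138), but r = 0.48 without the 2 farthest. The 2 farthest for Acaca were its lowest and its highest library, hydrogel replicate 3 and antimiR-195 replicate 2. Leaving both out also narrows the range, unlike for the pairs above, so these values do not compare with theirs. With any 1 library left out, r was 0.86 to 0.95 for Acaca and Elovl6 and 0.62 to 0.92 for Acaca and Acly.

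Acacb passed with Elovl5 and, with the opposite sign, with Elovl1. Acacb and Elovl5 had r = 0.84 (exact permutation p = 0.0067, adjusted 0.0472), rho = 0.98 (exact p = 0.000397, adjusted 0.0179) and r = 0.95 without the 2 farthest libraries. Acacb and Elovl1 had r = -0.89 (exact p = 0.00414, adjusted 0.0466), rho = -0.81 (exact p = 0.0218, adjusted 0.0980) and r = -0.79 without the 2 farthest. Scd1 was in no pair that passed, and its r with Scd2, the other desaturase, was -0.10. Without antimiR-195 replicate 2, 0 of the 45 pairs passed, while the 7 values of r kept their sign and lay between 0.73 and 0.94 in size.

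Many other genes followed these patterns. Of 13116 other genes with a mean of at least 1 CPM, 0.778% had an r with Fasn as high as that of Acly, and 0.648% one as high as that of Scd2. For Acacb the share was wider: 13.4% of genes had an r as high as that of Elovl5, and 5.72% one as low as that of Elovl1. The genes most like Fasn were Thbs4 and Flna at r = 0.98, Postn and Ltbp2 at 0.97 and Ncam1 at 0.96. Thbs4 and Postn encode matricellular proteins of injured tissue, Flna an actin crosslinker and Ltbp2 a protein of the elastic matrix. Those most like Scd1 included Pcsk5, a proprotein convertase, at r = 0.94, and Asph, Tfrc, the transferrin receptor, and Vopp1 at 0.92. These r values were picked as the highest of all genes and carry no test.

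**Figure D4:**
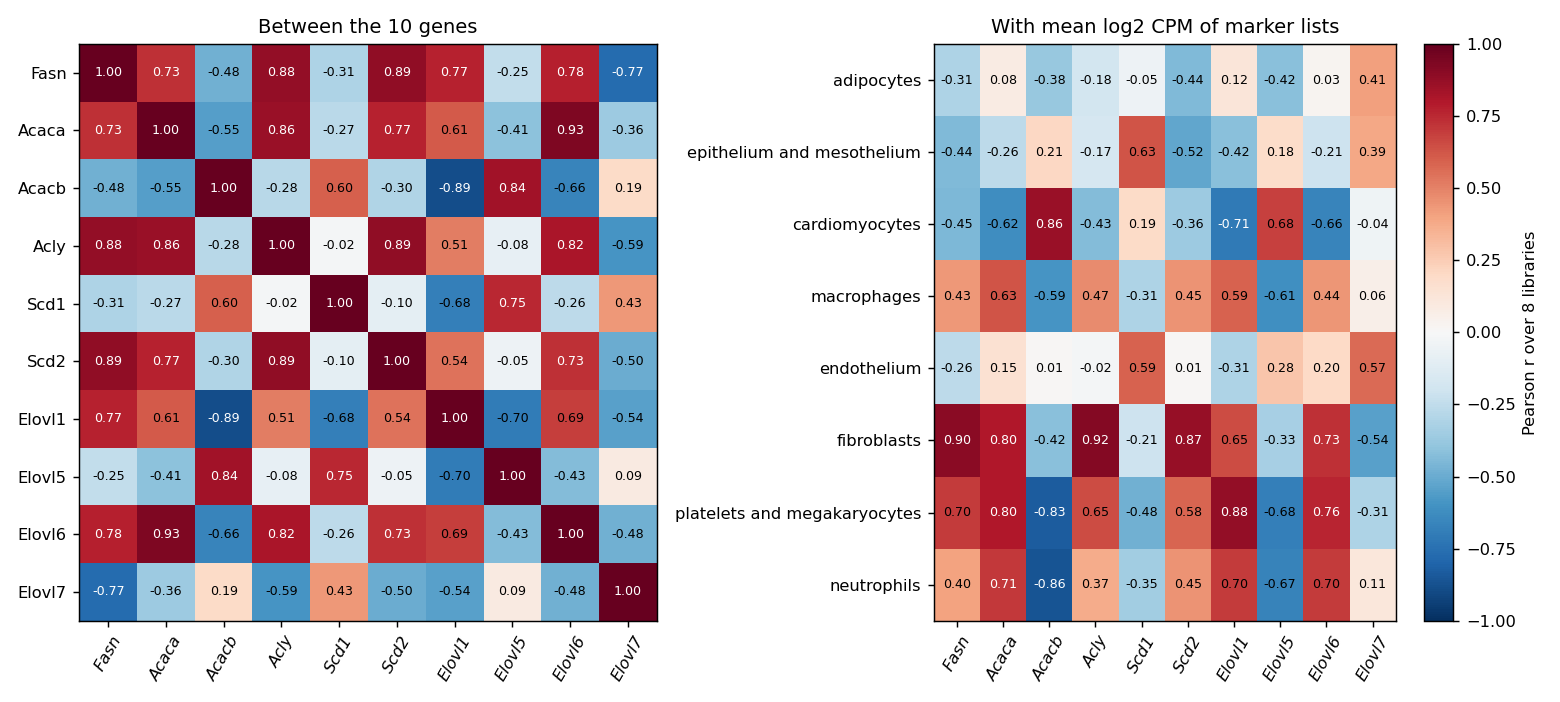
Pearson r of log2 CPM over the 8 libraries, as numbers and colour from -1 (blue) to 1 (red), between the 10 genes (left) and between each gene and the mean log2 CPM of the tested genes of 8 lists of cell type markers (right). Fasn, Acly and Scd2 have r of 0.88 to 0.89 with each other and 0.87 to 0.92 with fibroblast markers. Acacb has r = 0.86 with cardiomyocyte markers, or 0.55 without antimiR-195 replicate 2.

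Marker lists of 8 cell types were set beside the 10 genes. The mean log2 CPM of a list was taken over its markers with enough counts to be tested, the sum of CPM over all its markers. For marker relations, here and below, the 2 farthest libraries are those farthest from the median of the list mean. Of 80 relations between a gene and the mean log2 CPM of a marker list, 0 passed an adjusted p of 0.05 with r or with rho (exact permutation test), and 11 had an unadjusted p under 0.05 with r. Acly and the 8 fibroblast markers had the smallest p, at r = 0.92 (exact permutation p = 0.000645, adjusted 0.0516), rho = 0.95 (exact p = 0.00114, adjusted 0.0893) and r = 0.81 without the 2 farthest libraries. Fasn and the same markers had r = 0.90 (exact p = 0.00198, adjusted 0.0794), rho = 0.93 (exact p = 0.00223, adjusted 0.0893) and r = 0.92 without the 2 farthest. The fibroblast markers summed to 4390 to 8070 CPM in hydrogel and to 6130 to 8200 CPM in antimiR-195 libraries, lowest in hydrogel replicate 3 and highest in antimiR-195 replicate 2, while their mean log2 CPM was highest in hydrogel replicate 4. They did not all move together. In hydrogel replicate 3 Col1a1, Col1a2, Col3a1 and Postn were at their lowest, but Dcn was at its highest, 820 CPM. Acacb had r = 0.86 with the cardiomyocyte markers (exact p = 0.0125, adjusted 0.201), rho = 0.76 (exact p = 0.0368, adjusted 0.461) and r = 0.60 without the 2 farthest. Without antimiR-195 replicate 2 alone r was 0.55, and the mean log2 CPM of this list spanned only 12.36 to 12.59. In that library Actc1, Tnnt2 and Tnni3 were at their highest, but Myh6, Pln, Ryr2, Atp2a2 and Ttn at their lowest. Acacb also had r = -0.86 with the neutrophil markers (exact p = 0.0197, adjusted 0.216) and -0.83 with the platelet markers (exact p = 0.016, adjusted 0.213). The rho values were -0.55 and -0.62. Without antimiR-195 replicate 2 alone, r was -0.43 and -0.50. Elovl1 had r = 0.88 with the 4 tested platelet markers (exact p = 0.00392, adjusted 0.104), rho = 0.76 (exact p = 0.0368, adjusted 0.461) and r = 0.70 without the 2 farthest. All 5 platelet markers summed to 187 CPM in antimiR-195 replicate 2 and to 63.3 to 108 CPM in the other libraries. The part of these cell types in the variation of the genes was not tested.

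Fat cells express most of these enzymes strongly, so their markers were measured beside them. Of 15 adipocyte markers 6 had enough counts to be tested, and these were Fabp4, Plin4, Cidea, Pparg, Cfd and Car3. The other 9 had at most 17 counts in a library, with Adipoq at 3 to 17, Plin1 at 1 to 4, Lep at 0 to 1 and Ucp1 at 0 to 1 counts per library. The list summed to 734 to 1030 CPM in hydrogel and to 710 to 1260 CPM in antimiR-195 libraries, mostly Fabp4, which vessels also express, at 677 ± 136 and 780 ± 257 CPM (SD, n = 4 each). Plin4 averaged 145 and 126 CPM, Cidea 26.0 and 26.7 CPM and Pparg 10.4 and 11.1 CPM in the hydrogel and antimiR-195 libraries. The mean log2 CPM of the 6 tested markers had r = -0.31 with Fasn and -0.05 with Scd1. It leaves out Adipoq, Plin1 and Lep, so these values say little of fat cells. Epithelial and mesothelial markers, 11 in all, summed to 9.15 to 22.8 CPM in hydrogel and to 10.7 to 19.7 CPM in antimiR-195 libraries, with Epcam at 0 to 3 counts. Their sum was highest in hydrogel replicate 3, one of the 2 libraries high for Elovl7, at 22.8 CPM, and was 15.6 CPM in hydrogel replicate 2, the other one, below the 17.0 to 19.7 CPM of hydrogel replicate 4 and antimiR-195 replicates 1 and 2. Krt18 alone made up 12.8 of the 19.7 CPM of antimiR-195 replicate 2. By mean log2 CPM that library, at 0.15, was below hydrogel replicate 2, at 0.77. Hydrogel replicate 4, at 0.78, and antimiR-195 replicate 1, at 0.91, were still above it. The mean of the 8 tested markers had r = 0.39 with Elovl7 (exact permutation p = 0.336, adjusted 0.537), rho = 0.14 (exact p = 0.752, adjusted 0.872) and r = 0.32 without the 2 farthest libraries. Elovl7 had a higher r with the adipocyte markers, 0.41 (exact p = 0.307, adjusted 0.533), and with the endothelial markers, 0.57 (exact p = 0.144, adjusted 0.372). With endothelial markers, rho was 0.33, and r was 0.36 without the 2 farthest and 0.91 with each group centred on its own mean.

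**Figure D5:**
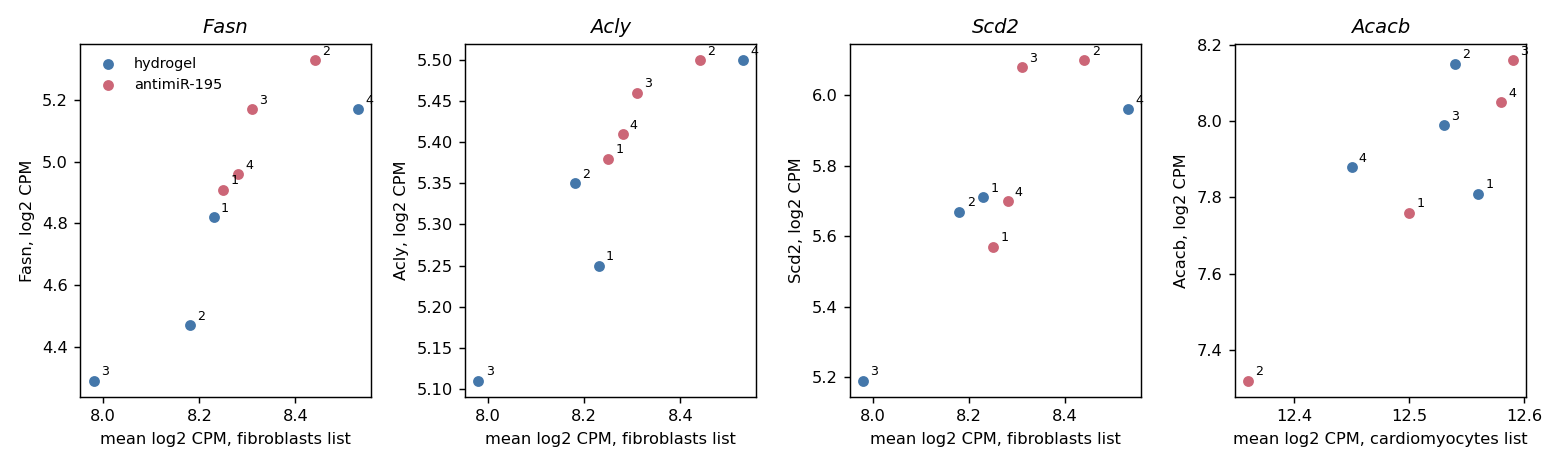
log2 CPM of Fasn, Acly and Scd2 against the mean log2 CPM of 8 fibroblast markers, and of Acacb against that of 9 cardiomyocyte markers, with 1 point per library (blue hydrogel, red antimiR-195, replicate number beside it). Hydrogel replicate 3 lies lowest on both axes of the first 3 panels, and antimiR-195 replicate 2 lowest on both axes of the last. Single markers went opposite ways in these libraries. Hydrogel replicate 3 was lowest for Col1a1 but highest for Dcn, and antimiR-195 replicate 2 lowest for Ttn but highest for Tnnt2.

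The promoters of Fasn and Acly, which varied together, and of Elovl7 are shown from RefSeq (GRCm38.p6), 250 bases before to 50 after the start, 5′ to 3′ along the gene. RefSeq promoters were found for 8 of the 10 genes, all but Scd1 and Scd2. Capitals mark the CCAAT box bound by NF-Y (letters CCAAT, either strand) and the core of the sterol response element bound by SREBP (letters CACCCCAC, either strand). The E-box CACGTG was also searched.
Fasn promoter, chr11:120824498-120824797, minus strand: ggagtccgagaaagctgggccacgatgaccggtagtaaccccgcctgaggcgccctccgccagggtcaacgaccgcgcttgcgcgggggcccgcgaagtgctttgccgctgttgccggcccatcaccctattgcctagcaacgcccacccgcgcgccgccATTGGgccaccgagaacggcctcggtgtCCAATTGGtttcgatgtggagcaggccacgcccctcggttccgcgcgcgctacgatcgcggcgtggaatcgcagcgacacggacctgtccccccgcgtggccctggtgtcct
Acly promoter, chr11:100527951-100528250, minus strand: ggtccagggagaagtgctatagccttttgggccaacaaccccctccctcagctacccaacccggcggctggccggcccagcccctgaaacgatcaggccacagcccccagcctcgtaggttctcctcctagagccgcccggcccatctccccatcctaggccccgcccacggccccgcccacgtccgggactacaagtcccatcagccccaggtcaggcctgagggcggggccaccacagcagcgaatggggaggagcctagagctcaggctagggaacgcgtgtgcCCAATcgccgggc
Elovl7 promoter, chr13:108214154-108214453, plus strand: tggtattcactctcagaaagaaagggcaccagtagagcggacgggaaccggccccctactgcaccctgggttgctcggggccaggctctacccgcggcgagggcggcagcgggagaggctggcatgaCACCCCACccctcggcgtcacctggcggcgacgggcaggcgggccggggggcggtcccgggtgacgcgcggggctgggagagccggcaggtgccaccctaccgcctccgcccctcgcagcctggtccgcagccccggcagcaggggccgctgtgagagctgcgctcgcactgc
The Fasn window held the CCAAT letters 3 times, at bases -90, -62 and -59 from the start, the latter pair overlapping on opposite strands. The Acly window held them once, 38 bases after the start. The letters were in 5 of the 9 windows of the 8 genes (Fasn, Acly, Acacb, Elovl1 and Elovl5), beside 37.4% of 32851 promoters of the same length. Another window of Elovl1 did not hold them. The sterol element core was in the window of Elovl7 alone, at base -123, beside 2.87% of all promoters, and the E-box in that of Elovl5 alone, beside 7.15%. These are descriptions of letters and not measured sites.

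Other genes of lipid synthesis gave no call in any of 6 related lists. Among genes that supply acetyl-CoA, malonyl-CoA and NADPH, 4 of 9 tested were positive and 5 negative, with a median log2 fold change of -0.01. Thrsp, a lipogenic regulator, was at -0.43 ± 0.25, or -0.07 without hydrogel replicate 3, and Idh1, an NADPH-making dehydrogenase, at -0.13 ± 0.11, or -0.08 without hydrogel replicate 3 or antimiR-195 replicate 2. Of the elongase partners, 5 of 7 tested were positive, with a median of 0.09, or -0.06 without antimiR-195 replicate 2. Hsd17b12, the ketoreductase of the elongation cycle, was at 0.15 ± 0.11 and Tecr, its last reductase, at -0.19 ± 0.14, or -0.11 without hydrogel replicate 2. Of the other desaturases and their electron donors, 4 of 8 tested were positive, with a median of 0.03. Scd4, a desaturase known from the heart, was at -0.45 ± 0.25, or -0.21 without hydrogel replicate 2, and Cyb5r3, a cytochrome b5 reductase, at 0.26 ± 0.15, or 0.11 without antimiR-195 replicate 2.

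Of 18 regulators, 10 were positive and 8 negative, with a median of 0.02. Insig1, which holds SREBP in the endoplasmic reticulum, was at 13.0 ± 0.969 CPM over hydrogel and 15.5 ± 1.14 CPM over antimiR-195 libraries (SD, n = 4 each), with no overlap of the groups and a log2 fold change of 0.26 ± 0.12. It was the only 1 of the 18 without overlap, beside 150 genes or 1.07% of the 13972 tested. Insig1 was named for its small p, so nothing is read from this. Srebf1, the SREBP gene most tied to fatty acid synthesis, was at -0.13 ± 0.11. Of 21 tested cholesterol genes 16 were positive, with a median of 0.13, but 11 were positive without antimiR-195 replicate 2 and also 11 without antimiR-195 replicate 3. Of 11 genes of glyceride assembly and lipid droplets 10 were negative, all by small amounts, with a median of -0.08, against 6 with limma-voom. Dgat2, which completes triglycerides, was at -0.20 ± 0.21 and Plin2, a coat protein of lipid droplets, at -0.13 ± 0.16. Plin2 was -0.04 without hydrogel replicate 2 or antimiR-195 replicate 4, -0.06 with antimiR-195 replicate 3 left out and -0.25 with antimiR-195 replicate 2 left out. Without antimiR-195 replicate 2, 7 of the 11 were negative and Dgat2 was at -0.06. Each of these named genes had an adjusted p of 0.9999 (quasi-likelihood test of edgeR).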

How the data were processed

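Polyadenylated RNA of left ventricle was sequenced after TRIzol isolation and a TruSeq stranded mRNA kit, per the labels' protocols. The build GRCm38 and the tools STAR, HTSeq and DESeq are listed without a role, per the submitters' processing notes. Their versions, the annotation release and the strand setting were not given in the sources used here. Deposited were raw counts per Ensembl gene, and the authors also deposited RPKM values. Counts per library and in the series table differed in 0 cells. Groups came from the drug field of the labels, and replicates were numbered in accession order, so numbers pair nothing.

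Names were found for 36345 of 38293 identifiers. Summary lines without a gene stayed out; reads outside genes made up 6.38% to 7.55% and reads of more than 1 gene 0.772% to 1.05% of the uniquely aligned reads, and alignments to more than 1 place 42.1% to 47.8% of these and the uniquely aligned reads together. Low genes were removed with filterByExpr, leaving 13972, and the rest scaled with TMM factors of 0.953 to 1.04. All 10 genes passed this filter. Groups were compared with the quasi-likelihood test of edgeR 4.0.16 (R 4.3.3) over all 8 libraries without covariates, two-sided, adjusted by Benjamini-Hochberg over all genes. The standard error is the size of the log2 fold change divided by the square root of F. Correlations used log2 CPM with a prior count of 2 and exact permutations (SciPy 1.17.1). Fits were also made with DESeq2 1.42.0 and limma 3.58.1 and tested on simulated data. UTRs came from GENCODE M21 (GRCm38), taking the longest of at least 50 bases per gene. The 10 genes, the 6 related lists and the 8 marker lists were chosen with earlier results of these data known. Named related genes are the 2 of smallest p per list with a mean of at least 1 CPM, those of the cholesterol list not being reported here; likeness was ranked by Pearson r for Elovl7, Fasn and Scd1, and 1 like gene without a name is not given. Marker relations and group-centred r were added after the data were seen.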

Additional observations from a re-analysis of the deposited data

Results flagged for a closer look

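Scd1 in antimiR-195 replicate 3 was at 26.3 CPM, while the other 3 antimiR-195 libraries lay between 15.9 and 17.3 CPM. Its gap to the nearest library was 0.871 of the range of the group, above Dixon's 95% critical ratio for 4 samples. This was the only such case in 20 groups of 4 examined for the 10 genes, and chance gives about 1 in 20.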

How the results depend on the processing

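No gene was called over all genes with DESeq2, limma-voom, other scalings, no filter or any library left out. Of 150 alternative fold changes of the 10 genes, 0 passed the threshold and 5 turned sign. Acacb, at -0.10, was 0.04 with limma-voom and -0.22 to 0.03 with 1 library left out; Elovl5, at 0.02, was -0.04 to 0.06 with 1 library left out; Dgat2, at -0.20, was 0.07 with limma-voom. The cause was not tested. Elovl6, at 0.59, was 0.22 on the log2(RPKM + 1) scale, which lowers scarce genes by construction. Of 45 pairs, 7 passed with r, 2 with rho, 0 without antimiR-195 replicate 2 and 0 without the 2 farthest libraries, where fewer libraries limit the p. Seed matches of 8 bases were in 0 of the 10 genes, against 3 with 7 or more. No paired analysis was possible because the labels give no replicate numbers. Depth limits Elovl7 most, with 3 to 65 counts.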
